A study of Mus musculus with 4 samples.

Results

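The genes described here encode the subunits of the proteasome, the protease complex that degrades ubiquitin-tagged proteins, and its activators and assembly factors. They were taken by name: every probe set of the array's value table whose single annotated gene symbol starts with Psma, Psmb, Psmc, Psmd, Psme, Psmf or Psmg and a digit. This gave 103 probe sets of 45101 in all, from 49 genes of 18193 that had a probe set with 1 symbol. The probe set shared by Psme2 and Psme2b carries 2 symbols and was left out. Both Psmc3ip and Psme3ip1 meet the rule through their names but encode partners of a subunit, not subunits.

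RNA came from NIH/3T3 cells, a line of mouse fibroblasts. Their pseudopodia (2 arrays) were set against their cell bodies (2 arrays). All 4 samples share one treatment. After serum starvation the cells were given 2 h to settle on fibronectin-coated porous membranes of 24 mm diameter and then 1 h with lysophosphatidic acid (LPA, a phospholipid that stimulates migration, at 150 ng/ml) on the underside, which drew protrusions through the pores. After fixation in 0.3% formaldehyde for 10 min the protrusions were scraped off one face and the cell bodies off the other. For all 4 samples the records also list calf serum at 10% and reversal of the fixation at 70 °C for 45 min. Unstimulated cells were not analysed here. The samples are described as independent, without saying how the cultures were separated, so p-values measure the spread between these arrays. The question put to the proteasome genes was whether the RNAs of 1 complex distribute alike between protrusion and cell body, in its core as in its regulatory particle.

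The proteasome is built from a barrel-shaped core and a regulatory cap. The core consists of stacked rings of alpha subunits, encoded by the Psma genes, which gate the entrance, around rings of beta subunits, encoded by the Psmb genes, some of which cut peptide bonds. The cap recognises ubiquitin chains, removes them, and unfolds the substrate with a ring of ATPases (Psmc genes) assisted by non-ATPase subunits (Psmd genes). The complex is present in the nucleus and the cytoplasm of nearly all cells, and in migrating cells local degradation is one way in which signalling and adhesion proteins are removed.

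Values are MAS5 signals, 1 per probe set and array, scaled so that every array has the same trimmed mean. A difference is thus one of shares, and less of an RNA in a fraction cannot be told apart from more of the others. Differences are log2 of pseudopodia over cell body on the log2(signal + 32) scale, given ± SE of a limma fit to all probe sets with n = 2 arrays per group, and a fold on this scale understates the change of dim probe sets. The median signal was 31.0 and 33.3 on the pseudopodia arrays, against 29.8 and 33.2 on the cell body arrays. The files hold no detection call, so probe sets with a mean below the median of all were set aside as dim, and 82 of the 103 proteasome probe sets remained, from 46 genes. The ratio of the 3' to the 5' beta-actin control, a sign of RNA integrity, was 1.77 and 3.41 on the pseudopodia arrays, against 1.55 and 1.89 on the cell body arrays. These overlap, with pseudopodia replicate 2 above the other 3 arrays. The same ratio of Gapdh was 0.96 and 1.01 in pseudopodia, against 0.92 and 0.95 in cell bodies. Their part in the results below was not tested. The line's label was checked on 9 fibroblast markers. Their summed signal was 130011 and 138609 in pseudopodia, against 137937 and 142010 in cell bodies, with Vim, Fn1, Col1a1, Col1a2 and Sparc bright on every array. Thy1 stayed at or below 56.3 on every array. Summed over 3 blood markers the signal reached at most 51.2, over 4 muscle and adipocyte markers at most 126.7, and over 5 epithelial markers at most 956.1.

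Proteasome RNAs were spread between pseudopodia and cell bodies in nearly the same proportion as the typical gene. Each gene was represented by its brightest probe set, the one with the highest mean. Among the 49 genes the median difference was 0.10, against 0.05 over all 18193 genes. After quantile normalization these medians were 0.05 and 0.07, and after scaling on the hybridization controls, which moved the median of all genes to -0.17, they were -0.20 and -0.17, so the list changed sides of the typical gene with the scaling. Of the 46 genes above the dim limit, 43 (93.5%) differed by less than 1.5-fold in either direction, against 78.0% of the 10962 genes kept. In the brightest signal class, above the upper quartile of the probe sets kept, where most of them lie, 38 of 41 proteasome genes (92.7%) stayed under that size, against 79.5% of 3740 genes.

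None of the 46 genes passed an adjusted p of 0.05 in the limma fit on its brightest probe set, where 6 had an unadjusted p under 0.05. Among the 82 probe sets 15 had one (18.3%), against 22% of all probe sets. Over all genes 3.81% passed (1.3% higher and 2.52% lower), and 6.34% of those in the brightest class. Among the 82 probe sets 1 passed, a dim one of Psmg3 that was lower in pseudopodia, against 4.4% of all 22519 probe sets kept (1.08% higher and 3.32% lower). That probe set cleared the dim limit only through its cell body arrays. The 95% intervals of 39 of the 46 genes lay within a 2-fold change in both directions, against 6095 of the 10962 genes kept. In the brightest class this held for 34 of 41, against 2694 of 3740. By probe set it held for 59 of 82, against 10364 of 22519, and for the others a 2-fold change is not excluded. For 23 of the 46 genes (50%, against 52.6% of all genes) the signals of pseudopodia and cell bodies did not overlap, with pseudopodia above in 16 (27.4% of all genes) and below in 7 (25.2%). By probe set this held for 44 of 82, against 53% of all, with 25 above (24.8% of all) and 19 below (28.2%). The replicate number marks a shared scan day and project code. With it as a block in limma, 14 of the 82 probe sets passed, 11 higher and 3 lower. With this block 18.1% of all probe sets passed (6.84% higher and 11.3% lower). By gene 7 of the 46 passed (15.2%), all higher, against 17.4% of all genes (7.71% higher and 9.72% lower). Fits without 1 array leave a lone array in a fraction. Their counts are given at the end, beside those of all probe sets. The blocked fit leaves 1 residual degree of freedom and rests mostly on a spread shared over all probe sets.

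**Figure D1:**
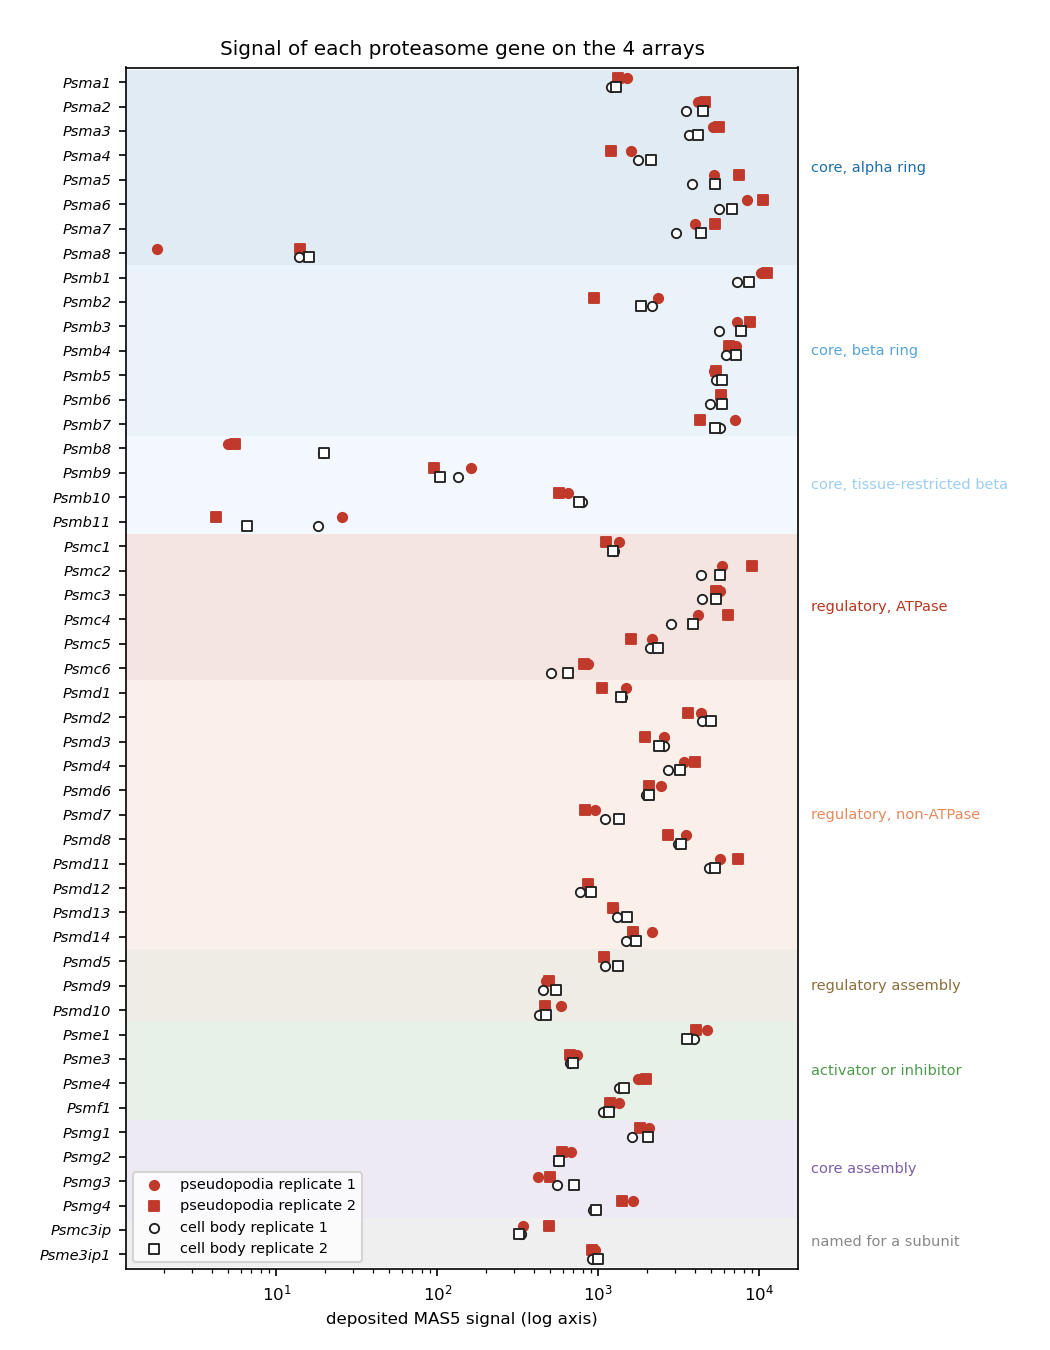
Deposited MAS5 signal (log axis) of the brightest probe set of each of the 49 genes, with the 2 pseudopodia arrays as filled symbols above the 2 cell body arrays as open symbols, grouped by role. For most genes the 4 symbols lie close together or overlap, as for Psmb5 and Psmb6. Psmg4 and Psmb1 are among the genes with both pseudopodia arrays above both cell body arrays.

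The replicate pairs gave proteasome genes different medians. The median was 0.24 in the replicate 1 pair and -0.06 in the replicate 2 pair, while that of all genes was 0.06 and 0.03. In 40 of the 49 genes (81.6%) the difference in the replicate 2 pair lay below that in the replicate 1 pair, against 50.8% of all genes. The core genes above the dim limit had a mean log2 of the scaled signal + 32 of 12.72 and 12.62 on the pseudopodia arrays, against 12.48 and 12.65 on the cell body arrays. For the regulatory particle these means were 12.21 and 12.13 in pseudopodia, against 11.99 and 12.17 in cell bodies. In both particles the replicate 1 cell body array was the lowest of the 4, and both pseudopodia arrays stood above it. Divided between pseudopodia and cell body, the beta-actin ratio named above was 1.14 in replicate 1 and 1.81 in replicate 2. For Gapdh it was 1.05 and 1.06, close to each other. The part of RNA integrity in this was not tested.

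**Figure D2:**
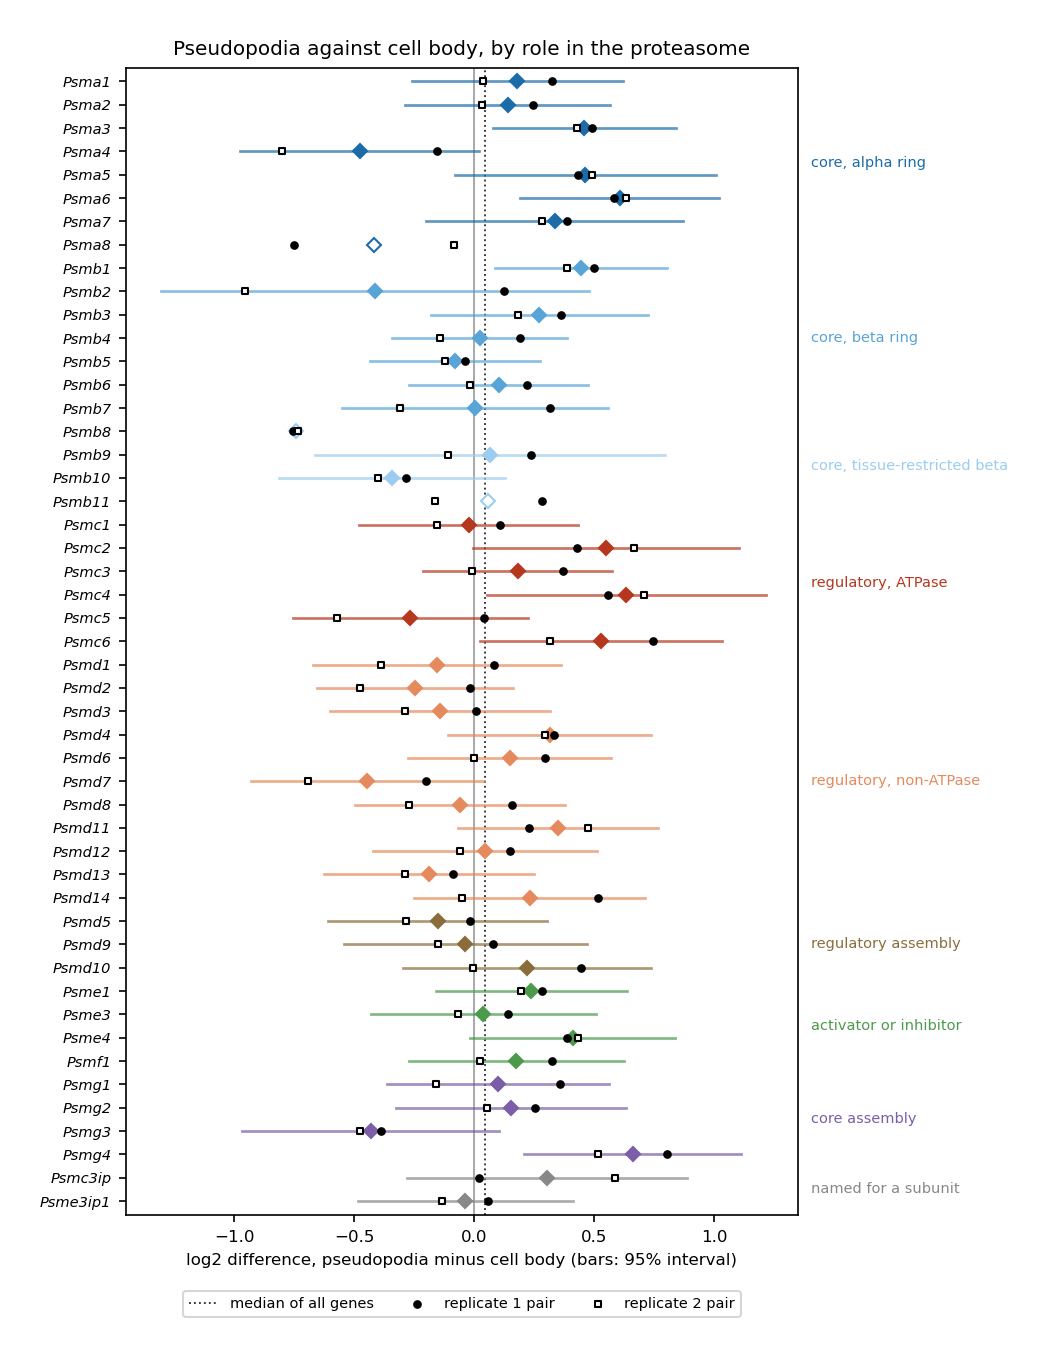
Log2 difference, pseudopodia minus cell body, of each gene's brightest probe set: diamonds are means of 2 pairs of arrays, bars are 95% intervals of the limma fit, filled circles the replicate 1 pair and open squares the replicate 2 pair; open diamonds without a bar are genes under the dim limit. Nearly all bars cross 0 or end near it, the alpha ring lies mostly right of 0 with Psma4 on the left, and the replicate 2 squares lie mostly left of the replicate 1 circles.

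The alpha subunits form the gated outer rings of the core. Of the 7 above the dim limit, 6 had positive differences in both pairs of arrays. This held for 36.3% of all genes kept and for 1690 of 3740 in the brightest class, where these 7 lie. The median of the 7 was 0.34. It was 0.23 after quantile normalization and 0.02 on the hybridization controls. On plain probe sets, whose names end in _at alone, the median was 0.04 over 6 alpha genes, and 3 of the 6 were positive in both pairs, against 32.5% of all genes. The values of Psma3, Psma5, Psma6 and Psma7 given here come from probe sets with other endings, explained further on. None passed the test in limma, and 2 of the 7 had an unadjusted p under 0.05, against 21.0% of all genes kept and 29.4% in the brightest class. Psma6 had 8423.9 and 10554.3 in pseudopodia, against 5623.9 and 6802.0 in cell bodies. The fractions did not overlap, and the difference was 0.61 ± 0.18 (adjusted p = 0.099, and 0.00286 with the replicate block). Psma3 had 5172.2 and 5644.3 in pseudopodia, against 3675.0 and 4188.2 in cell bodies, again without overlap, at 0.46 ± 0.16 (adjusted p = 0.153, and 0.0278 with the block). Psma5 stood at 0.46 ± 0.23, with overlapping arrays (adjusted p = 0.296, and 0.0236 with the block).

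By the brightest probe set Psma4 was the exception within its ring. It had 1591.3 and 1203.2 in pseudopodia, against 1770.4 and 2109.3 in cell bodies, so that here the pseudopodia were below. Its difference was -0.48 ± 0.21 (adjusted p = 0.245), small in the replicate 1 pair at -0.15 and larger in the replicate 2 pair at -0.80. The only probe set of Psma4 is a plain one. On their brightest plain probe sets Psma3 and Psma7 were negative too, at -0.70 and -0.05. Psma1, Psma2 and Psma6 stood at 0.18, 0.14 and 0.25 there. By the brightest probe set of any ending Psma1, Psma2 and Psma7 stood at 0.18, 0.14 and 0.34. The remaining alpha gene, Psma8, which in mammals is a testis form that takes the place of Psma7, was dim on every array (1.8 and 14.1 in pseudopodia, against 13.9 and 15.9 in cell bodies).

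In the scaling used, the beta subunits that hold the active sites were close to even between the fractions. Psmb5, which carries the chymotrypsin-like activity and is the main target of proteasome inhibitor drugs, had 5226.6 and 5395.2 in pseudopodia, against 5361.5 and 5863.3 in cell bodies (-0.08 ± 0.15, 95% interval -0.43 to 0.28). Psmb6, the caspase-like subunit, had 5773.1 and 5810.2 in pseudopodia, against 4952.3 and 5872.7 in cell bodies (0.10 ± 0.16, 95% interval -0.27 to 0.48). Psmb7, the trypsin-like subunit, had 7074.4 and 4288.8 in pseudopodia, against 5683.3 and 5312.0 in cell bodies (0.00 ± 0.24, 95% interval -0.55 to 0.56). In all 3 the arrays of the fractions overlapped, and in Psmb7 the pairs pointed in opposite directions. The adjusted p-values were 0.811, 0.759 and 0.994.

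Of the beta subunits without an active site, Psmb1 had the largest difference of the ring by the brightest probe set. It had 10249.7 and 11230.5 in pseudopodia, against 7244.0 and 8570.0 in cell bodies, without overlap, at 0.44 ± 0.15 (adjusted p = 0.147, and 0.0186 with the block). This difference was 0.12 after quantile normalization and 0.13 on the hybridization controls. The dimmer probe sets of Psmb1, 1420053_at and 1420052_x_at, stood at -0.15 and 0.09. Psmb2 had the lowest difference, -0.41 ± 0.38 (adjusted p = 0.58), and this rested on 1 array: it had 2358.4 and 943.9 in pseudopodia, against 2158.2 and 1843.1 in cell bodies. Pseudopodia replicate 2 stood below the other 3 arrays. Without that array the difference of Psmb2 was 0.24 (adjusted p = 0.544), and without pseudopodia replicate 1 it was -1.07 (adjusted p = 0.00134), in limma fits whose spread comes from the cell bodies and mostly from a value shared over all probe sets. Psmb3 and Psmb4 stood at 0.27 and 0.02. Over the ring of 7 genes the median was 0.02, and 1 of the 7 had fractions that did not overlap, against 52.6% of all genes. The ring's median was -0.17 after quantile normalization and -0.29 on the hybridization controls, against 0.07 and -0.27 over all genes kept. On plain probe sets it was -0.06 over 6 beta genes, against -0.03 over all genes with one. There 0 of the 6 were positive in both pairs, against 32.5% of all genes.

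The beta forms with restricted expression gave no call. Psmb8, Psmb9 and Psmb10 replace the catalytic subunits in the immunoproteasome, which interferon induces, and Psmb11 belongs to the thymus. Psmb10 was the brightest of its class on these arrays, with 643.5 and 570.3 in pseudopodia, against 787.7 and 757.5 in cell bodies; the pseudopodia were below without overlap, at -0.34 ± 0.20 (adjusted p = 0.369). Psmb9 had 161.4 and 94.6 in pseudopodia, against 134.3 and 103.1 in cell bodies (0.07 ± 0.31, adjusted p = 0.929). The brighter probe set of Psmb8 read 5.0 and 5.5 in pseudopodia, against 19.4 and 19.7 in cell bodies, and Psmb11 read at most 25.6, so both were under the dim limit and were not tested.

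In the regulatory particle the ATPases and the other subunits stood apart in their medians, at 0.36 over 6 ATPase genes and -0.06 over 11 non-ATPase genes. The order was kept after quantile normalization (0.20 and -0.14) and on the hybridization controls (0.04 and -0.37), but not on plain probe sets. On the brightest plain one of each gene, a setting chosen after seeing the data, the median was -0.18 over 5 ATPase genes and -0.15 over 8 non-ATPase genes, against -0.03 over all 9428 genes with one. The ATPases form the ring that unfolds substrates and opens the core. Psmc4 had 4158.4 and 6345.5 in pseudopodia, against 2816.7 and 3877.2 in cell bodies, without overlap, at 0.63 ± 0.25 (adjusted p = 0.192, and 0.00452 with the block). Psmc6 had 863.5 and 812.4 in pseudopodia, against 509.2 and 648.9 in cell bodies, also without overlap, at 0.53 ± 0.22 (adjusted p = 0.206). Psmc2 had 5897.4 and 9066.6 in pseudopodia, against 4369.8 and 5703.7 in cell bodies, at 0.55 ± 0.24 (adjusted p = 0.231, and 0.00858 with the block). These 3 genes were higher in pseudopodia in both pairs. Psmc5 pointed the other way, with 2144.9 and 1583.7 in pseudopodia, against 2082.2 and 2362.3 in cell bodies (-0.26 ± 0.21, adjusted p = 0.511), and overlapped. Psmc1 and Psmc3 stood at -0.02 and 0.18.

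By the brightest probe set none of the 11 non-ATPase genes differed by as much as 1.5-fold or had an unadjusted p under 0.05 in limma, and all 11 had 95% intervals within a 2-fold change. Of all genes kept, 78.0% stayed under 1.5-fold and 21.0% had such a p. The non-ATPase genes include the scaffolds of the base, a ubiquitin receptor and the lid with its deubiquitinase. Psmd14, the deubiquitinase that removes the ubiquitin chain, had 2142.6 and 1640.5 in pseudopodia, against 1492.3 and 1700.9 in cell bodies (0.23 ± 0.21, adjusted p = 0.561). Psmd4, a ubiquitin receptor, had 3413.4 and 3973.0 in pseudopodia, against 2702.4 and 3231.4 in cell bodies, without overlap (0.32 ± 0.18, adjusted p = 0.357). The highest was Psmd11, a lid subunit, at 0.35 ± 0.18 (adjusted p = 0.301), and the lowest Psmd7, the partner of Psmd14 in the lid, with 949.8 and 825.1 in pseudopodia, against 1093.0 and 1340.8 in cell bodies (-0.44 ± 0.21, adjusted p = 0.263). Fractions did not overlap in 6 of the 11, with pseudopodia above in 3 and below in 3, against 52.6% of all genes (27.4% above and 25.2% below). The scaffolds Psmd1 and Psmd2, which hold the base together, stood at -0.15 and -0.25. The lid subunits Psmd3, Psmd8 and Psmd12 stood at -0.14, -0.06 and 0.05.

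Set against each other, the core and the regulatory particle had nearly equal medians, 0.07 over 19 core genes and 0.05 over 17 regulatory genes. The difference of 0.02 was 0.09 in the replicate 1 pair and -0.02 in the replicate 2 pair, so its sign was not stable between pairs, and it was -0.03 after quantile normalization. The 19 core genes include some under the dim limit, while all 17 regulatory genes were above it. Over the 16 core genes above the limit the median was 0.12. With the tissue-restricted beta genes left out, the core median minus the regulatory median was 0.09. Core genes had positive values in 13 of 19 and regulatory genes in 9 of 17, where all genes had them in 54.4%. On the hybridization controls both medians were below 0, at -0.20 for the core and -0.26 for the regulatory particle, and 12 of the 49 genes were positive, against 31 in the scaling used. The mean of the core minus the mean of the regulatory particle was 0.51 and 0.49 on the pseudopodia arrays, against 0.48 and 0.47 on the cell body arrays, a shift of a few hundredths of a log2 unit. No p is given for these scores, and 2 against 2 arrays cannot give an exact permutation p below 0.333.

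The factors that assemble the core lay on both sides of 0. Psmg4, a chaperone that helps to build the alpha ring, had 1633.0 and 1392.5 in pseudopodia, against 927.8 and 968.8 in cell bodies. The fractions did not overlap, and the difference, 0.66 ± 0.19, was the highest of the 46 genes (fold 1.58, adjusted p = 0.0983, and 0.014 with the block). Its partner Psmg3 was on the other side, with 419.2 and 501.9 in pseudopodia, against 552.6 and 703.4 in cell bodies (-0.43 ± 0.23, adjusted p = 0.321). The dim second probe set of Psmg3, 1430572_at, was the one that fell in the test: it had 9.4 and 6.6 in pseudopodia, against 63.5 and 80.0 in cell bodies, at -1.87 ± 0.38 (adjusted p = 0.0426). Its pseudopodia signals lay below the median signals of those arrays, 31.0 and 33.3. The call therefore rests on a probe set that passed the dim limit only through the fraction where it is high. That call ended after quantile normalization (-1.83, adjusted p = 0.0538) and when dim probe sets were kept in (adjusted p = 0.127). It also ended without the variance trend (adjusted p = 0.0623 in limma), but there 0 of all 22519 probe sets passed, so that setting cannot single it out. With 1 array left out its difference ranged from -2.00 to -1.73. Psmg1 and Psmg2, which form the other chaperone pair, stood at 0.10 and 0.15.

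The chaperones of the regulatory base, Psmd5, Psmd9 and Psmd10, stood at -0.15, -0.04 and 0.22. Psmd10, also known as gankyrin, had 584.4 and 468.8 in pseudopodia, against 425.2 and 469.9 in cell bodies, with overlap (adjusted p = 0.615). Psmd9 had 476.0 and 493.8 in pseudopodia, against 450.3 and 549.1 in cell bodies.

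By the brightest probe set the alternative activators and the inhibitor had positive values in 4 of 4 genes, with a median of 0.21. Values were positive in 54.4% of all genes and in 57.3% of those in the brightest class. None of the 4 passed in limma or had an unadjusted p under 0.05. Dimmer probe sets of Psme4 above the limit stood at 0.32, -0.28 and -0.46. Psme4, an activator found in the nucleus, had 1772.2 and 1970.3 in pseudopodia, against 1351.4 and 1453.1 in cell bodies, without overlap (0.41 ± 0.18, adjusted p = 0.242). Psme1, the alpha chain of the interferon-induced activator, had 4754.5 and 4048.2 in pseudopodia, against 3908.0 and 3529.4 in cell bodies, also without overlap (0.24 ± 0.17, adjusted p = 0.46). Psme3, another nuclear activator, stood at 0.04 ± 0.20 (adjusted p = 0.936). Psmf1, which encodes an inhibitor of the core, had 1351.5 and 1188.9 in pseudopodia, against 1074.3 and 1169.3 in cell bodies (0.18 ± 0.19, adjusted p = 0.647). On the hybridization controls Psme4 stood at 0.10, Psme1 at -0.08, Psme3 at -0.27 and Psmf1 at -0.14, so that 3 of the 4 changed sign with that scaling. The name matches Psmc3ip, a meiotic recombination factor, and Psme3ip1 stood at 0.30 (adjusted p = 0.53) and -0.04 (adjusted p = 0.938).

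Several genes gave different answers on different probe sets. Of the 23 proteasome genes with at least 2 probe sets above the dim limit, the brightest stood above the median of the dimmer ones in 17 (73.9%, against 59.7% of 5035 such genes in all), by a median of 0.39 (0.13 over all). In 7 of the 23 (30.4%, against 23.0% of all) 1 probe set was higher in pseudopodia in both pairs and another lower in both. Where probes lie within each transcript was not analysed here. Psmd11, with 5 probe sets above the limit, is one of them. The brightest had 5717.4 and 7421.4 in pseudopodia, against 4876.8 and 5340.4 in cell bodies. The next, 1440253_at, had 2962.5 and 2374.3 in pseudopodia, against 2237.3 and 1618.7 in cell bodies, at 0.48 ± 0.22. In 1429370_a_at the order was turned, with 1211.6 and 1007.1 in pseudopodia, against 1370.5 and 1579.1 in cell bodies, at -0.41 ± 0.20, and 1456059_at stood at -0.42 ± 0.20. None of these passed without the block (1440253_at had an adjusted p of 0.0436 with it in limma), and in each of the 4 the fractions did not overlap. The remaining one stood at 0.00.

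**Figure D3:**
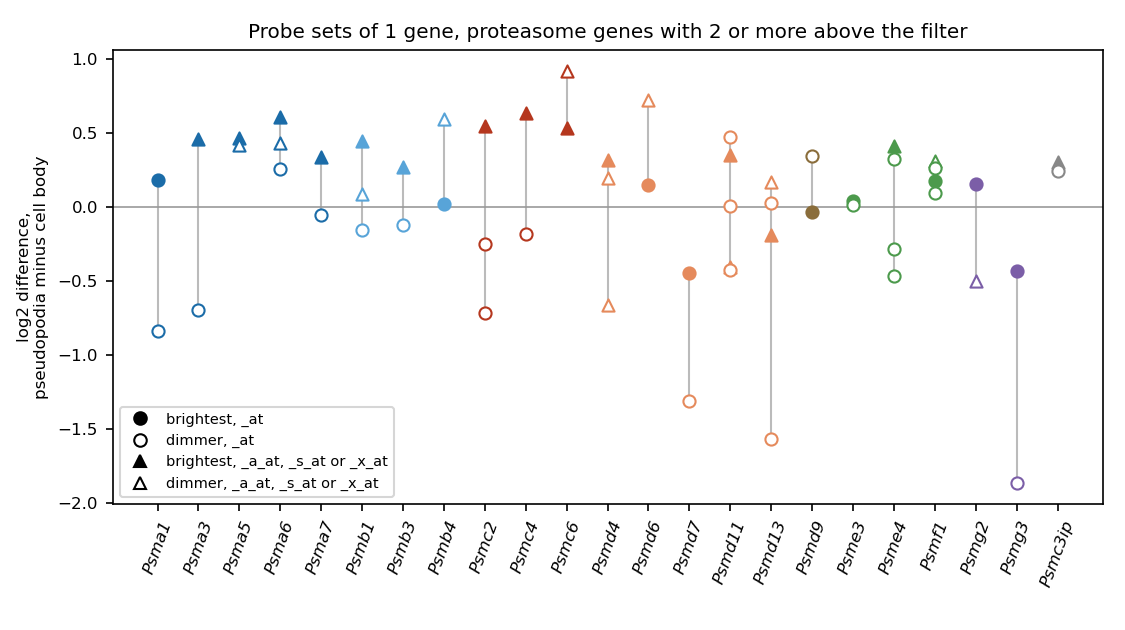
Log2 difference, pseudopodia minus cell body, of every probe set above the dim limit for the 23 genes with 2 or more, filled for the brightest of its gene and open for the dimmer ones, with triangles for probe sets whose names end in _a_at, _s_at or _x_at. In 17 genes the filled symbol lies above the median of the open ones. The lowest point is the dim probe set of Psmg3 at -1.87.

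In Psmc2 the brightest probe set, 1435859_x_at, stood at 0.55, while 1426611_at had 3239.4 and 2832.5 in pseudopodia, against 3406.6 and 3810.7 in cell bodies, at -0.25 ± 0.17 (adjusted p = 0.445), and the dim 1443307_at stood at -0.72. Psmc4 gave 0.63 on one probe set and -0.18 on the other. Psmb4 gave 0.02 on its brightest and 0.59 on 1438984_x_at, which had 5471.5 and 8836.7 in pseudopodia, against 4170.5 and 5098.5 in cell bodies (adjusted p = 0.209, and 0.00733 with the block). Psmd6, a lid subunit, gave 0.15 on its brightest and 0.72 ± 0.21 on 1423696_a_at, with 2294.9 and 2992.6 in pseudopodia, against 1430.3 and 1746.7 in cell bodies (adjusted p = 0.0974, and 0.00388 with the block). Psmc6 was positive on both, with 0.92 ± 0.25 on 1417770_s_at (adjusted p = 0.083, and 0.0194 with the block), the only proteasome probe set at least 1.5-fold higher in each of the 4 array pairs (2.79% of all probe sets were). At least 1.5-fold lower in each were 2 (7.86% of all probe sets), in Psmg3 and Psmd13.

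The differing probe sets fall partly along their names. A plain _at ending marks probes designed to be specific to 1 transcript, _a_at probes that match several transcripts of a gene, and _s_at and _x_at probes that can bind transcripts of other genes. Over the 52 plain proteasome probe sets the median was -0.04, and over the 30 with another ending it was 0.33. Over all probe sets with 1 symbol these medians were -0.04 and 0.07. The 6 ending in _x_at had a median of 0.49, against 0.21 over all with that ending. With plain probe sets only, 43 genes remained and their median was -0.04, against 0.03 over all genes. Values on the other endings may include signal of related transcripts, and how much was not tested.

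Several dimmer probe sets stood below the brightest one of their gene. For Psma1, 1458292_at had 40.5 and 27.7 in pseudopodia, against 67.5 and 78.4 in cell bodies (-0.84 ± 0.33, adjusted p = 0.192). For Psma3, 1441707_at had 64.6 and 87.3 in pseudopodia, against 141.1 and 123.6 in cell bodies (-0.70 ± 0.27, adjusted p = 0.191). The dimmest probe set of Psmd4 above the limit stood at -0.66, and the dimmer ones of Psme4 at 0.32, -0.28 and -0.46. Psmg2 stood at 0.15 on its brightest probe set and at -0.50 ± 0.20 on 1425373_a_at, with 441.9 and 438.7 in pseudopodia, against 606.6 and 653.7 in cell bodies (adjusted p = 0.207). Psmd13, a lid subunit, stood at -0.19 on its brightest and at -1.57 ± 0.44 on 1445729_at, which had 13.4 and 54.6 in pseudopodia, against 121.1 and 117.2 in cell bodies (adjusted p = 0.0858, and 0.00607 with the block). For Psmd7, 1432820_at had 24.2 and 81.6 in pseudopodia, against 105.0 and 183.7 in cell bodies (-1.31 ± 0.46, adjusted p = 0.152, and 0.00622 with the block). None of these passed without the block. The second probe set of Psme3, 1418078_at, had 1311.4 and 336.3 in pseudopodia, against 953.4 and 456.5 in cell bodies, so that its pairs stood at 0.45 and -0.42; it passed as higher without pseudopodia replicate 2 (adjusted p = 0.0342) and as lower without pseudopodia replicate 1 (adjusted p = 0.0311), in those same limma fits with a mostly shared spread.

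**Figure D4:**
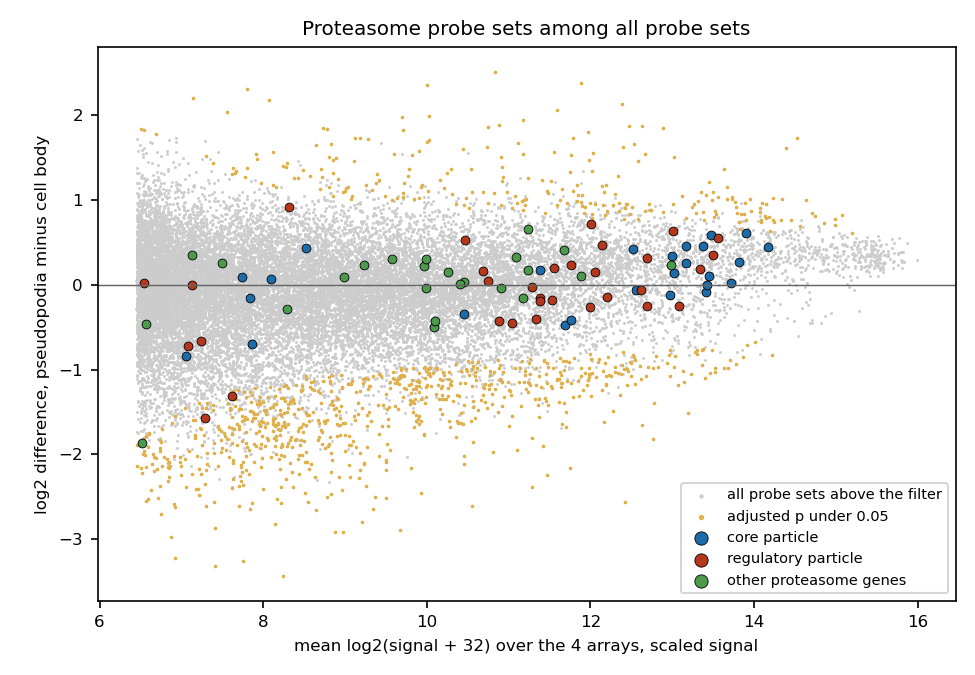
Log2 difference, pseudopodia minus cell body, against mean log2(signal + 32) of the scaled signal, for all 22519 probe sets above the dim limit (grey, with those at an adjusted p under 0.05 in yellow) and the 82 proteasome probe sets (coloured by particle). The proteasome probe sets lie between -1.87 and 0.92, mostly at the bright end, and 1 of them, of Psmg3, is below the threshold.

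Partners of the proteasome that the naming rule does not take also lay near even at gene level. Of 32 listed symbols, 21 genes had a probe set with 1 symbol, among them ubiquitin shuttles, deubiquitinases, the extraction ATPase Vcp and the transcription factor Nfe2l1. Their median was 0.02 by the brightest probe set, and none of the 21 passed in limma. In that fit 3 (14.3%) had an unadjusted p under 0.05, against 21.0% of all genes kept. Among their 49 probe sets above the dim limit none was higher and 2 were lower, beside 1.08% and 3.32% of all probe sets. Sem1, the smallest lid subunit, which is named outside the Psm series, had the highest value by the brightest probe set. It had 7070.9 and 8361.2 in pseudopodia, against 4837.5 and 5227.3 in cell bodies, at 0.61 ± 0.16 (adjusted p = 0.0752, and 0.00364 with the block), and its second probe set stood at 0.69. Nfe2l1, which activates the transcription of proteasome genes when proteasome activity falls, had the lowest value by the brightest probe set. It had 1451.3 and 600.8 in pseudopodia, against 2251.5 and 1917.1 in cell bodies, without overlap, at -1.14 ± 0.37 (adjusted p = 0.129, and 0.000975 with the block). The pairs differed in size, at -0.63 and -1.65.

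Both partner calls came from dimmer probe sets of their genes. Vcp fell on 1457588_at, with 136.4 and 135.9 in pseudopodia, against 791.9 and 921.0 in cell bodies, at -2.52 ± 0.22 (adjusted p = 0.0109). Its brightest probe set had 4343.0 and 4233.1 in pseudopodia, against 5369.7 and 6247.0 in cell bodies, and stood at -0.43 ± 0.16 (adjusted p = 0.17, and 0.0397 with the block). Usp14, a deubiquitinase bound to the cap, fell on 1439201_at, with 78.9 and 53.6 in pseudopodia, against 249.2 and 330.4 in cell bodies, at -1.90 ± 0.28 (adjusted p = 0.0241). Its brightest probe set stood at 0.13 ± 0.28 (adjusted p = 0.827). The highest single partner probe set above the dim limit was one of Txnl1, a thioredoxin that binds the cap, 1435235_at at 0.86 ± 0.23 (adjusted p = 0.0797, and 0.0203 with the block). The calls on Vcp and Usp14 ended without the variance trend (adjusted p = 0.061 and 0.0673 in limma). There 0 of all 22519 probe sets passed, so that setting cannot single them out. With 1 array left out the differences ranged from -2.62 to -2.41 on Vcp and from -2.12 to -1.68 on Usp14.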

How the data were processed

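RNA of 2 pseudopodia and 2 cell body samples was hybridised to 4 arrays. The deposited values are an intensity per probe set, made with MAS5 per the submitters' processing notes (its version and scaling target are not given in the sources used here). The trimmed mean was 250.0 on each array, a sign that the authors had scaled them. Gene symbols came from the platform annotation (34945 probe sets with 1 symbol, 932 with several, 9160 unnamed here). Settings files deposited with the arrays (other values, text only), per the file headers, show 1 chip lot, 1 scanner and 2 scan days, shared by same-numbered arrays.

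Each array was rescaled to 500 as its trimmed mean (2% at each end) and transformed as log2(signal + 32), and probe sets were kept where the mean over arrays reached the median of all 45037. The comparison used limma 3.58.1 under R 4.3.3 (variance trend, two-sided, Benjamini-Hochberg over 22519 probe sets, without a block). The procedure was run on simulated data with independent errors drawn from its own fitted spread and no replicate effect. Such data cannot show how it behaves where same-numbered arrays share a scan day. Replicate numbers pair the arrays by project code and scan day. Replicate 2 minus 1 differences of the fractions correlated with r = 0.243 over probe sets. Named are all probe sets past the threshold, the extremes of each role, genes with opposed probe sets and a list of key genes; Psma2, Psma5, Psma7, Psma8, Psmb3, Psmb4, Psmb11, Psmc1, Psmc3, Psmc6, Psmd1, Psmd2, Psmd3, Psmd6, Psmd8, Psmd12, Psmd13, a second probe set each of Psmd7 and Psme3, and Txnl1 were added after their values were seen. Alternatives changed the pseudocount, scaling, filter, block, variance trend, arrays and probe sets. The members and lists were chosen with earlier results of these data known. The number of arrays limits the precision.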

Additional observations from a re-analysis of the deposited data

How the results depend on the processing

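The number of proteasome probe sets that passed in limma was 1 of 82 in the fit reported. It was 0 to 2 under every alternative without a block that used all 4 arrays. It was 0 after quantile normalization (11 at an unadjusted p under 0.05), 0 without the filter (18 unadjusted), 0 with a filter at the 75th percentile (8 unadjusted) and 0 without the variance trend (10 unadjusted), and 2 on the hybridization controls, where Psmd13 joined Psmg3. With the replicate block it was 14. Over all probe sets the counts were 990 of 22519, 747 after quantile normalization (4737 unadjusted) and 176 of 45037 without the filter (6143 unadjusted). They were 783 of 11260 at the 75th percentile (3094 unadjusted), 4087 with the replicate block and 0 without the variance trend (4487 unadjusted). Without that trend the 0 among proteasome probe sets is thus not particular to them. On the hybridization controls 42 were higher and 1139 lower, against 243 and 747. Partner probe sets past the threshold, 2 in the fit reported, numbered 1 without the filter, 1 at the 75th percentile, 9 with the replicate block and 0 without the trend (7 unadjusted). Leaving out 1 array leaves a lone array, assumed to vary like the other fraction, and the shared spread had 25.6 and 22.2 prior degrees of freedom without pseudopodia replicates 1 and 2, and 6.57 and 6.43 without cell body replicates 1 and 2, beside 1 residual. The counts then ran from 0 to 11 for proteasome probe sets, 0 to 9 for partners and 0 to 3956 for all: 0 in each case without cell body replicate 1 (4, 4 and 2502 unadjusted) or replicate 2 (9, 7 and 2959), 11, 9 and 3956 without pseudopodia replicate 1, and 5, 2 and 2895 without pseudopodia replicate 2. The median of the proteasome genes minus that of all genes, 0.05, ranged from -0.01 to 0.10 when an array was left out and was 0.18 and -0.09 in the single pairs. The core minus regulatory median ranged from -0.065 to 0.067 with an array left out and was 0.12 with the mean over all probe sets of a gene. Both other pseudocounts left each named probe set on its side of the threshold. Of the partner calls, that on Usp14 was also lost without the filter (adjusted p = 0.0581). The cause of these changes was not tested, except that a filter alters the number of probe sets adjusted over.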
